A study of Rattus norvegicus with 16 samples.

Results

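The 94 genes described here code for the pores and auxiliary subunits of voltage-gated calcium and sodium channels and of potassium channels. They were chosen by their symbols in the array's annotation: every symbol made of Kcn, a family letter or letters and a number, every Cacna, Cacnb and Cacng symbol, and every Scn symbol with a number and a final a, on probe sets that carry no other symbol. Of the 14557 genes with such a probe set, 94 matched, each with 1 probe set. The symbol rule uses no measured value, but it was set with earlier results of these data known.

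The series holds 16 Affymetrix arrays of cells taken from cultured pituitary glands of 21-day-old Wistar rats and labelled as isolated corticotropes. Cells were given CRH (corticotropin-releasing hormone), the cytokine IL-6, or eNampt (the extracellular form of nicotinamide phosphoribosyltransferase), with 4 arrays per ligand, and there were 4 control arrays; the 3 ligand groups were kept with the ligand for 24 h, and the control titles give no time. The medium of all groups held FGF at 0.05 µg/l and 10% fetal bovine serum. Cells were picked out with beads and an antibody against the CRH receptor CRHR1, per the labels' protocols, whereas the design text names an antibody against CRH; the sources used here do not state the doses. Nothing in the labels ties the arrays of a group to separate animals or cultures, so the p-values below measure only the spread between these arrays, which may be technical.

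Corticotropes are excitable endocrine cells that fire calcium-dependent action potentials and release ACTH when calcium enters. Voltage-gated sodium and calcium channels carry the inward current of each spike, and potassium channels set the resting potential and end the spike. CRH acts through a receptor that raises cAMP, and in corticotropes it is known to depolarize the membrane and raise calcium entry. IL-6 acts through gp130 and STAT3, and eNampt is the secreted form of an enzyme of NAD synthesis.

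Not every rat channel gene could be followed. RefSeq lists 129 rat genes that match the symbol rule, and 35 of them had no single-symbol probe set under that symbol in the annotation used here and are not among the 94. Among these were Kcnma1, the pore of the large-conductance calcium-activated potassium channel, Kcnk2, a background potassium channel, the L-type calcium channel pores Cacna1c and Cacna1d, and Scn2a, Scn3a and Scn8a, sodium channel pores of neurons; of these Scn2a has a probe set under an older symbol, given with the sodium channels below. Of 29 members listed for a known part in pituitary excitability or secretion, 16 were measured. With families set by symbol, the coverage was 32 of 40 voltage-gated potassium pores and 5 of 8 calcium- and sodium-activated potassium pores. It was 12 of 15 inward rectifiers, 12 of 14 tandem-pore potassium channels and 13 of 16 potassium auxiliary subunits. It was lower for the calcium channel pores, with 4 of 10, the beta subunits, with 1 of 4, and the sodium channel pores, with 5 of 10. The alpha2delta subunits were covered for 3 of 4 genes and the gamma subunits for 7 of 8.

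Levels are log2 values as deposited. The median over all probe sets lay between 1.82 and 2.02 on the 16 arrays, and the 90th percentile was 5.07 to 5.45 on the 12 ligand arrays, 5.37 to 5.51 on control arrays 1 and 2, and 4.43 to 4.58 on control arrays 3 and 4. Pomc, which codes for the ACTH precursor, was above the array median on all 16 arrays (7.29 to 8.73), but Tbx19, the corticotrope transcription factor, was above it on 1 array, with a mean of 1.54, and Neurod1 and Gpr50 on 0. Prl, the prolactin gene, had the higher mean of 10.78, and Gh1, the growth hormone gene, was also above the median on every array. So were Col1a1, Col1a2, Myl9, Pdgfrb and Tagln (mean 10.24), 5 of the 9 measured markers of fibroblasts and mural cells, against 38.2% of all genes. Of the rest, Dcn was above it on 15 arrays (mean 4.66), Pdgfra on 8 (2.19), and Lum (1.91) and Des (1.89) on 5 each. The mean of these 9 markers per array spanned 4.90 to 5.32 in the CRH group and 4.71 to 5.15 in the IL-6 group. It spanned 4.99 to 5.70 in the eNampt group and 4.34 to 5.25 in the control group. Of the 3 measured genes listed for melanotropes, Drd2 (mean 6.06) and Pcsk2 (3.08) were above the median on every array, and Oprk1 on 0. Whether the Drd2 and Pcsk2 signal came from melanotropes was not tested. Among folliculostellate and stem cell markers, Cdh1 (mean 6.97), Sox2 (3.38) and Aldh1a2 (2.94) were above it on every array, S100b on 15 and Aldh1a1 on 6. Of 8 leukocyte markers Cd14 was above the median on every array and C1qa on 14, with a mean of 2.71. Csf1r, Aif1 and Lyz2 were above it on 6 arrays each, and Lyz2 reached 5.14. Cd68 was above it on 4 arrays, C1qb on 2, and Ptprc, which marks all leukocytes, on 0. In such mixed bulk RNA, fewer cells of a type and less RNA per cell cannot be told apart, and which cells carried a channel's transcript was not tested.

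The first question was which channels lay above the array medians. Few did: 5 of the 94 channel genes (5.32%) were above the median of all probe sets on every one of the 16 arrays, against 38.2% of all 14557 genes. These were Kcnk1, Cacng7, Kcnn3, Cacna2d1 and Kcna3. Another 23 channel genes (24.5%) were below the median on every array, against 16.7% of all genes, and the other 66 (70.2%) were above it on some arrays and below it on others, against 45.1% of all genes. The median channel gene had a mean level of 1.77, against 2.25 for the median gene. The spread within groups, as the median residual SD, was 0.277 for the channel genes, against 0.409 for all genes. Probe sets differ in how brightly they report a given amount of RNA, so these levels place each channel relative to its array and do not rank RNA amounts between genes.

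**Figure D1:**
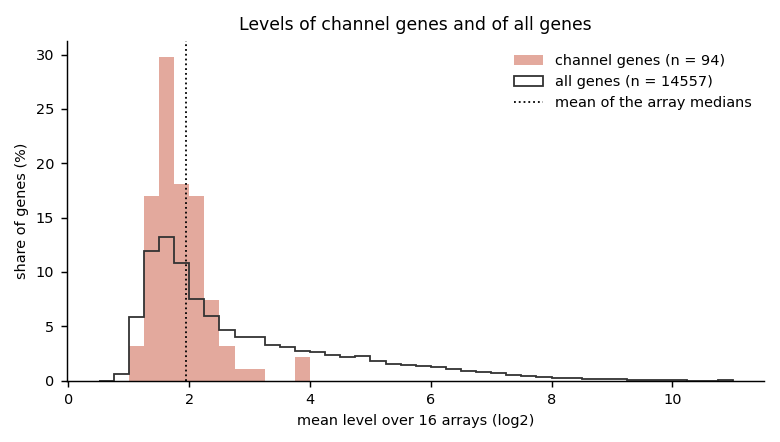
Histogram of the mean log2 level over 16 arrays (x axis) against the share of genes in percent (y axis), for the 94 channel genes (filled) and all 14557 genes (outline); the dotted line is the mean of the array medians. The channel genes crowd around the array medians, with 2 genes, Kcnk1 and Kcnq5, near 3.9 and a median of 1.77, against 2.25 for all genes.

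Kcnk1 codes for a tandem-pore potassium channel of the background type and had the highest mean of the channel genes, 3.87. Its levels were 4.18, 3.44, 3.61 and 4.16 on the CRH arrays, 3.80, 4.84, 3.31 and 3.42 on the IL-6 arrays, 3.89, 4.95, 4.59 and 3.59 on the eNampt arrays and 4.50, 3.53, 2.93 and 3.11 on the control arrays. Every array lay well above its median, by 1.01 at the least, and the 4 groups overlapped. It was the only channel gene that stayed above the median on every array when the median was taken over the named genes alone (2.11 to 2.27), or when a level at least 1 log2 unit above the median was asked for.

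Cacng7 codes for a gamma subunit of the family first found in calcium channels, and its product is best known as an AMPA receptor auxiliary protein. Its levels were 3.56, 2.11, 4.26 and 2.89 on the CRH arrays, 2.14, 2.48, 2.83 and 4.34 on the IL-6 arrays, 4.98, 4.31, 2.40 and 3.10 on the eNampt arrays and 2.46, 4.44, 2.39 and 2.94 on the control arrays. The arrays of each group were far apart, with a high array and a low array in every group, and the SD within groups was 0.92 in the CRH group, 0.97 in the IL-6 group, 1.16 in the eNampt group and 0.96 in the control group. Kcnn3, the pore of a small-conductance calcium-activated potassium channel that underlies afterhyperpolarization, had 3.84, 3.59, 2.08 and 2.57 on the CRH arrays, 2.76, 2.67, 1.97 and 2.68 on the IL-6 arrays, 4.44, 2.39, 3.78 and 2.61 on the eNampt arrays and 2.75, 2.30, 2.82 and 2.31 on the control arrays. The high arrays of Kcnn3 were eNampt arrays 1 and 3 and CRH arrays 1 and 2, no IL-6 or control array lay above 2.82, and the groups overlapped.

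Cacna2d1 codes for the alpha2delta subunit that carries high-voltage-activated calcium channels to the membrane and binds gabapentin. Its levels were 2.57, 3.70, 2.70 and 2.33 on the CRH arrays, 2.29, 2.62, 2.64 and 3.15 on the IL-6 arrays, 2.13, 3.02, 1.94 and 2.63 on the eNampt arrays and 2.24, 2.39, 2.43 and 2.34 on the control arrays. They lay close together on the control arrays, with an SD of 0.09, and spread more in the CRH group, where array 2 stood highest. Kcna3, a voltage-gated delayed rectifier best known from lymphocytes, had 2.07, 2.04, 2.14 and 2.75 on the CRH arrays, 2.21, 2.74, 2.25 and 3.07 on the IL-6 arrays, 3.09, 2.58, 3.03 and 2.40 on the eNampt arrays and 2.41, 2.74, 2.06 and 3.28 on the control arrays. On the CRH arrays 3 of its 4 levels were just above the array median, and all groups overlapped.

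Cacna2d1 was the member nearest to the limit from inside, with a lowest value of 0.03 above its array's median. Kcnq5, the pore of an M-type potassium channel, was nearest from outside: it was above the median on 15 arrays and 0.03 below it on CRH array 4. Its levels were 3.93, 4.03, 4.71 and 1.98 on the CRH arrays, 2.50, 4.71, 4.27 and 4.81 on the IL-6 arrays, 3.61, 3.70, 4.83 and 4.23 on the eNampt arrays and 3.23, 3.77, 3.71 and 3.66 on the control arrays. Apart from CRH array 4 and IL-6 array 1 they lay between 3.23 and 4.83, and its mean of 3.85 was the next after that of Kcnk1.

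**Figure D2:**
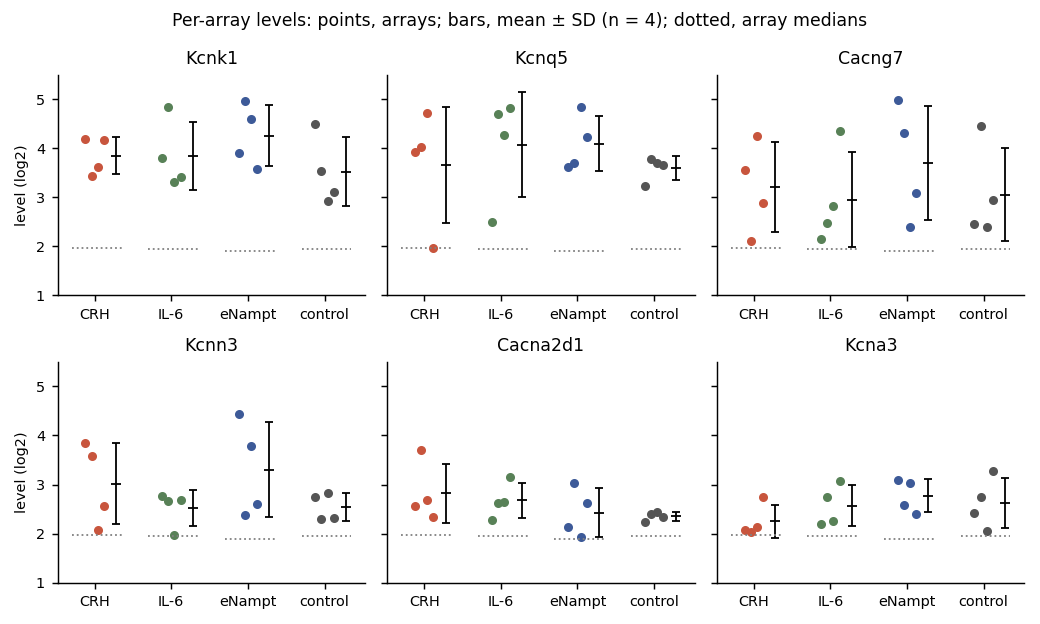
Log2 levels (y axis) of 6 channel genes on each array, by group (x axis); points are arrays, bars are mean ± SD (n = 4) and dotted lines are the mean of the array medians of a group. All points lie above the line for Kcnk1, while Kcnq5 has 1 CRH array at the line and Cacng7 and Kcnn3 have widely spread points in several groups.

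Of the 5 genes above the median on every array, 3 have a promoter in the RefSeq table. They are shown so that the letters of these channels' start regions can be read beside the motif shares of all promoters. Each runs from 250 bases before to 50 bases after the gene's start in the build GRCr8, 5′ to 3′ on the gene's strand. Capitals mark the GC box GGGCGG and the core of the cAMP response element TGACG, read on both strands.
Cacna2d1 (chr4:20330098-20330397, minus strand): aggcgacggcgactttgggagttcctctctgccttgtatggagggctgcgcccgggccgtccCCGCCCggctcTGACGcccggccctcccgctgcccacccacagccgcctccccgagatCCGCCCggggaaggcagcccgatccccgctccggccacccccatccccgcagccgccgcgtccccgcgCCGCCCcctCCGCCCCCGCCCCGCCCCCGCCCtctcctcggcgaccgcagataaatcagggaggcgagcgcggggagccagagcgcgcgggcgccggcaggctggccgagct
Kcna3 (chr2:197320074-197320373, plus strand): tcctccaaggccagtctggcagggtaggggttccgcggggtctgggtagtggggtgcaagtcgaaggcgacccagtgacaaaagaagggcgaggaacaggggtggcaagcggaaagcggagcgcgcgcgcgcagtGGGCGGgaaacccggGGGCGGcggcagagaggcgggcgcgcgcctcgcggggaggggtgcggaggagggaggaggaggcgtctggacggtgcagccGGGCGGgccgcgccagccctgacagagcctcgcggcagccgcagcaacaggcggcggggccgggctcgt
Kcnn3 (chr2:177234090-177234389, plus strand): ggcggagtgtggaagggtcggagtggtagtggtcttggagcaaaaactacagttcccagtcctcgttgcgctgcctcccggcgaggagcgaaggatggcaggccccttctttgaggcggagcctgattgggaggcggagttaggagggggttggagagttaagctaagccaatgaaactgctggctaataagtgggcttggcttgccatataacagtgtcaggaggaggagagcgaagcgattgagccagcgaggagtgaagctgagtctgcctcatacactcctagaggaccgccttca
Cacna2d1 held 7 GC boxes, of which 2 share a base, and 1 TGACG. Kcna3 held 3 GC boxes, and Kcnn3 held neither motif. The G and C content was 78.3% for Cacna2d1, 74.0% for Kcna3 and 57.0% for Kcnn3. Of the 94 channel genes 66 have a promoter in the table. The GC box was present in 32 of these 66 promoters (48.5%), against 34.9% of all 27457 promoters, and the TATA box letters TATAAA in 2 (3.03%), against 14.3%. The cAMP response element core TGACG was in 14 (21.2%), against 22.0%, and the full element TGACGTCA in 0, against 1.91%. These shares describe letters in a fixed window, not binding. The GC box was in 8 of 14 promoters (57.1%) of channels above the median on at least 12 arrays, and in 11 of 19 (57.9%) of channels below it on every array.

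Among the 32 voltage-gated potassium pores, Kcna3 was above the median on every array, 5 were below it on every array and 26 were mixed. After Kcnq5 and Kcna3 the highest was Kcnd3, a pore of transient A-type current, with a mean of 2.52 and 2.43, 2.46, 2.42 and 2.43 on the CRH arrays, 3.19, 2.43, 2.23 and 2.08 on the IL-6 arrays, 2.17, 2.42, 2.44 and 3.91 on the eNampt arrays and 3.18, 2.38, 2.28 and 1.86 on the control arrays. Its 4 CRH arrays lay close together, and single IL-6, eNampt and control arrays stood above 3. Kcnh2, the ether-a-go-go-related channel that repolarizes heart cells and damps firing in pituitary cells, had 2.27, 2.62, 1.85 and 2.49 on the CRH arrays, 2.17, 2.47, 2.36 and 2.89 on the IL-6 arrays, 2.82, 2.41, 2.93 and 2.09 on the eNampt arrays and 2.06, 2.35, 2.25 and 1.52 on the control arrays. It was above the median on 14 arrays, and the groups overlapped. Kcna1 and Kcna6, pores of low-threshold delayed rectifiers, were above the median on 14 and 15 arrays, with means of 2.28 and 2.25, and Kcns3, a silent subunit that modifies other pores, on 15 with a mean of 2.23. At the other end Kcnq3, which pairs with other M-type pores in neurons, Kcns2, Kcnc1, Kcng4 and Kcnh5 were below the median on every array, with means of 1.62, 1.60, 1.57, 1.50 and 1.38. Kcnc1 is a fast delayed rectifier of fast-firing neurons. Kcnq1, the pore of the slow cardiac delayed rectifier, was above the median on 3 arrays and ranged from 1.49 to 2.29. Kcnd1, another A-type pore, had 1 eNampt array at 4.18 while its mean was 2.19.

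Of the 5 potassium pores grouped by symbol as calcium- and sodium-activated, Kcnn3 alone was above the median on every array. Kcnn4, the intermediate-conductance calcium-activated channel, was above it on 7 arrays and Kcnt1, a sodium-activated channel, on 6, with a mean of 1.91 each. Kcnt2, another sodium-activated pore, and Kcnu1, the sperm-specific relative of Kcnma1, were below it on every array.

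None of the 12 inward rectifiers was above the median on every array, and 4 were below it on every array. The highest was Kcnj8, the pore of the ATP-sensitive channel of vascular smooth muscle, with 1.96, 2.18, 2.20 and 2.84 on the CRH arrays, 2.19, 2.10, 1.98 and 1.91 on the IL-6 arrays, 1.84, 2.32, 1.90 and 2.24 on the eNampt arrays and 1.92, 2.32, 2.08 and 2.20 on the control arrays. It was above the median on 13 arrays, CRH array 4 was the highest, and the groups overlapped. The mural markers are given above, and their part in the level of Kcnj8 was not tested. Kcnj11, the ATP-sensitive pore of pancreatic beta cells and neurons, was below the median on every array (1.01 to 1.71), as were Kcnj10, Kcnj13 and Kcnj16. Kcnj2 and Kcnj4, strong inward rectifiers that hold the resting potential, were above it on 6 and 5 arrays, with means of 1.80 and 1.85.

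Of the 12 tandem-pore channels, Kcnk1 was followed by Kcnk12, a subunit that gives little or no current by itself, with 2.29, 3.10, 2.38 and 2.16 on the CRH arrays, 1.80, 2.51, 3.29 and 2.58 on the IL-6 arrays, 2.36, 2.29, 2.62 and 2.16 on the eNampt arrays and 2.31, 2.23, 1.90 and 2.04 on the control arrays. It was above the median on 14 arrays, with single CRH and IL-6 arrays above 3. Kcnk3, an acid-sensitive background channel, was above the median on 7 arrays and ranged from 1.18 to 2.66. Kcnk4, a mechanically gated channel, and Kcnk16, a channel of pancreatic islets, were below it on every array.

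None of the 13 potassium auxiliary subunits was above the median on every array. Kcnab2, a cytoplasmic beta subunit of voltage-gated pores, came nearest, with 15 arrays above and 2.90, 1.98, 1.98 and 2.62 on the CRH arrays, 2.15, 2.16, 2.36 and 2.93 on the IL-6 arrays, 1.93, 2.03, 2.53 and 2.58 on the eNampt arrays and 2.19, 3.37, 2.62 and 2.58 on the control arrays. Control array 2 was its highest value, and the groups overlapped. Of the beta subunits of the large-conductance channel, Kcnmb4, its neuronal form, was above the median on 10 arrays with a mean of 2.25, Kcnmb1, its smooth muscle form, on 3 arrays with a mean of 1.92, and Kcnmb3 on 0. Kcnmb1 reached 3.72 on CRH array 1 and 3.46 on IL-6 array 3, and its highest value on the other 14 arrays was 2.63. Kcne3, Kcne4 and Kcnip1 were below the median on every array, with means of 1.22, 1.28 and 1.28; Kcne3 and Kcne4 are single-span subunits that modify voltage-gated pores, and Kcnip1 is a calcium-binding partner of A-type pores.

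Of the 4 calcium channel pores measured, 3 were below the median on every array: Cacna1b (N-type; mean 1.52), Cacna1e (R-type; mean 1.41) and Cacna1f (the retinal L-type pore; mean 1.38). The fourth, Cacna1h, is a low-threshold T-type pore and had 1.84, 2.31, 2.29 and 1.97 on the CRH arrays, 2.60, 2.34, 1.56 and 2.00 on the IL-6 arrays, 1.72, 2.14, 1.72 and 1.82 on the eNampt arrays and 2.41, 2.02, 2.06 and 1.81 on the control arrays. It was above the median on 9 arrays, with no group wholly above or below. The only beta subunit, Cacnb4, had 1.39, 2.41, 1.45 and 1.49 on the CRH arrays, 1.67, 1.89, 1.53 and 1.33 on the IL-6 arrays, 1.63, 1.71, 1.37 and 1.39 on the eNampt arrays and 2.00, 1.59, 1.29 and 1.60 on the control arrays, with CRH array 2 apart from the other arrays of its group. Of the alpha2delta subunits, Cacna2d2 was above the median on 14 arrays (mean 2.09) and Cacna2d3 on 0. Among the gamma subunits, Cacng1, the skeletal muscle subunit, and Cacng8, an AMPA receptor auxiliary, followed Cacng7 with 15 and 14 arrays above, and Cacng6 was above on 0.

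No measured sodium channel pore reached the median on more than 5 of the 16 arrays. Scn11a, a persistent-current pore of sensory neurons, was the highest, with 1.90, 1.89, 1.97 and 2.37 on the CRH arrays, 1.67, 2.04, 2.03 and 1.99 on the IL-6 arrays, 1.55, 1.90, 1.93 and 1.64 on the eNampt arrays and 1.90, 1.56, 1.62 and 1.67 on the control arrays. Its 4 CRH arrays lay between 1.89 and 2.37, and the groups overlapped. Scn4a, the skeletal muscle pore, was above the median on 3 arrays, Scn7a, an atypical sodium-sensing channel, and Scn9a, a pore of sensory and endocrine cells, on 1 each, and Scn10a on 0. The probe set under Scn2a1, an older symbol of Scn2a in RefSeq and outside the rule, was above the median on 0 arrays (1.02 to 1.99).

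**Figure D3:**
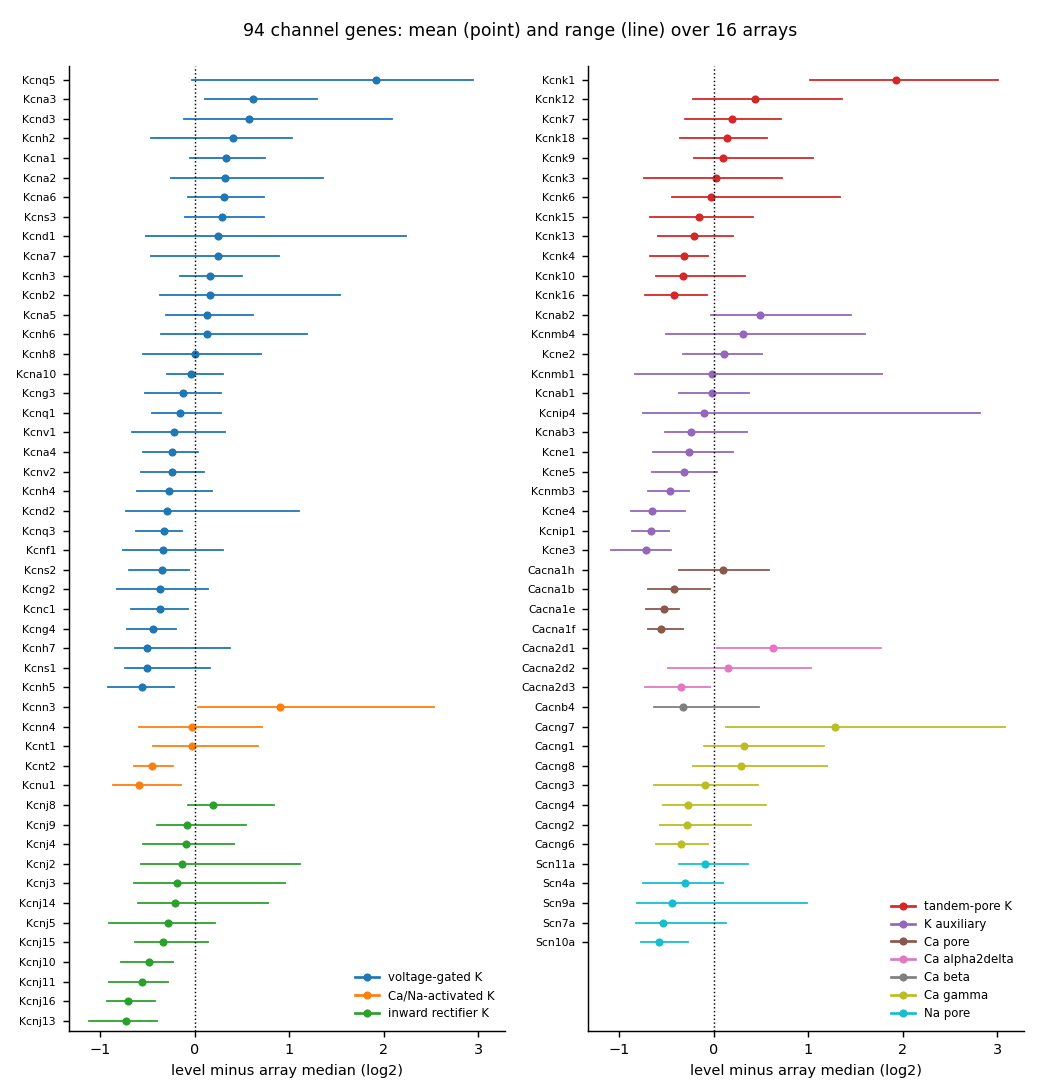
Each row is 1 of the 94 channel genes; the x axis is the log2 level minus the array median, with the mean over 16 arrays as a point and the range as a line, coloured by family; the dotted line at 0 is the array median. Lines wholly right of 0 belong to Kcnk1, Cacng7, Kcnn3, Cacna2d1 and Kcna3, and 23 lines lie wholly left of it.

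The number of channels above the medians overlapped between the groups. Per array, 32 to 38 channel genes were above in the CRH group, 32 to 36 in the IL-6 group, 26 to 34 in the eNampt group and 26 to 36 in the control group. As shares these were 27.7% to 40.4% of the channel genes per array, against 56.6% to 59.6% of all genes. On all 4 arrays of a group, 15 were above in the CRH group, 14 in the IL-6 group, 17 in the eNampt group and 13 in the control group. No channel gene was above on all 4 arrays of 1 group and on none of another. The counts over all 4 arrays of a group were not made for all genes.

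The second question was whether any ligand changed a channel's level. All adjusted p are from limma with Benjamini-Hochberg adjustment over all 14557 genes, differences are log2, ligand minus control, with their SE, and each group had 4 arrays. The 3 comparisons with control share the same 4 control arrays. No channel gene passed the threshold of 0.05 in any of them, nor in the moderated F test over the 3 ligands, where the smallest adjusted p of a channel gene was 0.936; the F test called 0.0206% of all genes. At an unadjusted p under 0.05 in the F test there were 0 channel genes, against 5.14% of all genes.

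For CRH against control, limma called 0 of the 94 channel genes and 0% of all genes, and the smallest adjusted p of a channel gene was 0.677. At an unadjusted p under 0.05 there were 5 channel genes (5.32%), Kcne3, Cacng8, Kcnn4, Scn11a and Kcnj11, with positive differences, against 6.33% of all genes. The median difference of the channel genes was 0.05, against 0.10 for all genes, and 60 of 94 differences were positive. With each array centred on its median 51 of 94 were positive, with a median of 0.025, so the split depends on the scaling. Kcne3, a single-span subunit that partners KCNQ1 in epithelia, had 1.39, 1.23, 1.53 and 1.55 on the CRH arrays, against 1.10, 1.12, 1.11 and 0.89 on the control arrays. All CRH values lay above all control values, at levels below the array medians, and the difference was 0.37 ± 0.12 (SE; adjusted p = 0.677). Cacng8, an AMPA receptor auxiliary, had 2.23, 2.12, 2.78 and 3.20 on the CRH arrays and 2.32, 2.09, 1.92 and 1.76 on the control arrays, a difference of 0.56 ± 0.23 (SE; adjusted p = 0.766). CRH arrays 3 and 4 were the high ones, and the difference was 0.36 without CRH array 4. Kcnn4 had 1.87, 1.87, 2.25 and 2.72 on the CRH arrays and 2.01, 1.63, 1.80 and 1.39 on the control arrays, a difference of 0.47 ± 0.20 (SE; adjusted p = 0.777). It was 0.28 without CRH array 4, and the groups overlapped. Groups without overlap were seen for 2 channel genes, Kcne3 and the low-threshold pore Kcna1, both higher with CRH, against 2.5% of all genes. Kcna1 had 2.32, 2.46, 2.52 and 2.25 on the CRH arrays and 2.14, 2.22, 1.90 and 2.02 on the control arrays.

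On the lower side for CRH, the channels with the most negative moderated t were Kcnip4, Scn9a and Kcnk16, and the differences of Kcnip4 and Scn9a rested on single control arrays. Kcnip4, a calcium-binding partner of A-type potassium pores, had 2.83, 1.37, 1.56 and 1.42 on the CRH arrays and 1.31, 4.74, 2.60 and 2.01 on the control arrays, a difference of -0.87 ± 0.56 (SE; adjusted p = 0.827). Control array 2 stood far above all others, and without it the difference was -0.18. Scn9a had 1.26, 1.20, 1.30 and 1.20 on the CRH arrays and 1.21, 1.24, 2.91 and 1.56 on the control arrays, a difference of -0.49 ± 0.29 (SE; adjusted p = 0.820). Control array 3 was the high one; the difference was -0.097 without it and 0.012 without control arrays 3 and 4. Kcnk16 had 1.43, 1.21, 1.35 and 1.58 on the CRH arrays and 1.73, 1.54, 1.49 and 1.69 on the control arrays, a difference of -0.22 ± 0.14 (SE; adjusted p = 0.827), with overlap. In the voltage-gated potassium family 19 of 32 differences with CRH were positive (16 of 32 with each array centred on its median), and in the tandem-pore family 8 of 12, with a median of 0.19 (7 of 12, with a median of 0.17, after centring).

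For IL-6 against control, limma called 0 channel genes, against 0.00687% of all genes, and the smallest adjusted p of a channel gene was 0.860. At an unadjusted p under 0.05 there was 1 channel gene, Kcna1, against 5.54% of all genes. The median difference was 0.04, against 0.09 for all genes, and 53 of 94 were positive (55 after centring). Kcna1 had 2.62, 2.49, 2.30 and 2.27 on the IL-6 arrays, against 2.14, 2.22, 1.90 and 2.02 on the control arrays. All IL-6 values were above all control values, and the difference was 0.35 ± 0.16 (SE; adjusted p = 0.860). Groups without overlap were seen for 2 channel genes, Kcna1 and Kcne3, against 3.17% of all genes, and Kcne3 had 1.24, 1.20, 1.23 and 1.33 on the IL-6 arrays. Kcnd2, an A-type potassium pore, had 2.03, 1.86, 1.50 and 2.97 on the IL-6 arrays and 1.61, 1.70, 1.66 and 1.25 on the control arrays, a difference of 0.53 ± 0.25 (SE; adjusted p = 0.860). IL-6 array 4 was the high one, and the difference was 0.23 without it. Kcna2, a low-threshold delayed rectifier, had 3.13, 2.44, 1.89 and 3.22 on the IL-6 arrays and 2.25, 2.26, 2.04 and 1.99 on the control arrays, a difference of 0.53 ± 0.29 (SE; adjusted p = 0.860). It was 0.35 without IL-6 array 4, and IL-6 array 3 lay below every control array.

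On the lower side for IL-6, Kcnip4 had 2.16, 1.21, 1.35 and 1.36 on the IL-6 arrays, against the same control values as above, and a difference of -1.14 ± 0.56 (SE; adjusted p = 0.860). Without control array 2 it was -0.45. Kcnk6, a tandem-pore channel, had 1.58, 1.60, 1.80 and 1.82 on the IL-6 arrays and 1.93, 1.60, 1.97 and 3.31 on the control arrays, a difference of -0.50 ± 0.29 (SE; adjusted p = 0.860). Control array 4 alone was high, and the difference without it was -0.13. Kcnj15, an inward rectifier, had 1.42, 1.50, 1.31 and 1.74 on the IL-6 arrays and 1.69, 1.53, 2.06 and 1.76 on the control arrays, a difference of -0.27 ± 0.15 (SE; adjusted p = 0.860). Control array 3 was the highest, and the difference was -0.17 without it. In the tandem-pore family 8 of 12 differences with IL-6 were positive, with a median of 0.22 (9 of 12, with a median of 0.23, after centring).

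For eNampt against control, limma called 0 channel genes, against 0.0137% of all genes, and the smallest adjusted p of a channel gene was 0.631. At an unadjusted p under 0.05 there was 1 channel gene, Kcnip4, against 7.55% of all genes. The median difference was 0.00, against 0.06 for all genes, with 48 positive and 46 negative, and with 57 positive and 37 negative after centring, where the median was 0.059. Kcnip4 had 1.21, 1.36, 1.54 and 1.33 on the eNampt arrays, against 1.31, 4.74, 2.60 and 2.01 on the control arrays. The eNampt values were all low, only control array 1 lay among them, and the difference of -1.30 ± 0.56 (SE; adjusted p = 0.631) was -0.61 without control array 2. Kcnh4, a channel of the ether-a-go-go-like family, had 1.58, 1.62, 1.58 and 1.29 on the eNampt arrays and 1.83, 1.76, 1.93 and 2.13 on the control arrays, a difference of -0.39 ± 0.20 (SE; adjusted p = 0.681). It and the tandem-pore channel Kcnk18 had no overlap, both lower with eNampt, against 4.14% of all genes without overlap. Kcnk18 had 1.88, 1.99, 1.96 and 1.69 on the eNampt arrays and 2.00, 2.09, 2.08 and 2.54 on the control arrays. Kcnj15 had 1.59, 1.38, 1.47 and 1.42 on the eNampt arrays and a difference of -0.29 ± 0.15 (SE; adjusted p = 0.681), which was -0.20 without control array 3.

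On the higher side for eNampt, Kcnk1 had 3.89, 4.95, 4.59 and 3.59 on the eNampt arrays, against 4.50, 3.53, 2.93 and 3.11 on the control arrays, a difference of 0.74 ± 0.41 (SE; adjusted p = 0.691). Control array 1 lay among the eNampt values, and the lowest values were those of control arrays 3 and 4, the arrays with the lower 90th percentile. Without these arrays the difference was 0.24. Kcnh2 had 2.82, 2.41, 2.93 and 2.09 on the eNampt arrays and 2.06, 2.35, 2.25 and 1.52 on the control arrays, a difference of 0.52 ± 0.25 (SE; adjusted p = 0.670), which was 0.34 without control array 4. Kcnh6, a relative of Kcnh2 known from lactotropes, had 2.21, 2.07, 3.10 and 1.97 on the eNampt arrays and 2.04, 1.99, 1.98 and 1.62 on the control arrays, a difference of 0.43 ± 0.25 (SE; adjusted p = 0.706). eNampt array 3 was the high one, and the difference was 0.17 without it. The largest positive difference over all 16 arrays was that of Kcnn3, 0.76 ± 0.45 (SE; adjusted p = 0.716), with eNampt arrays 1 and 3 high, and it was 0.38 without eNampt array 1. Of the potassium auxiliary subunits 10 of 13 had negative differences with eNampt, with a median of -0.09 (8 of 13, with a median of -0.03, after centring), and of the voltage-gated potassium pores 14 of 32 (11 of 32 after centring).

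**Figure D4:**
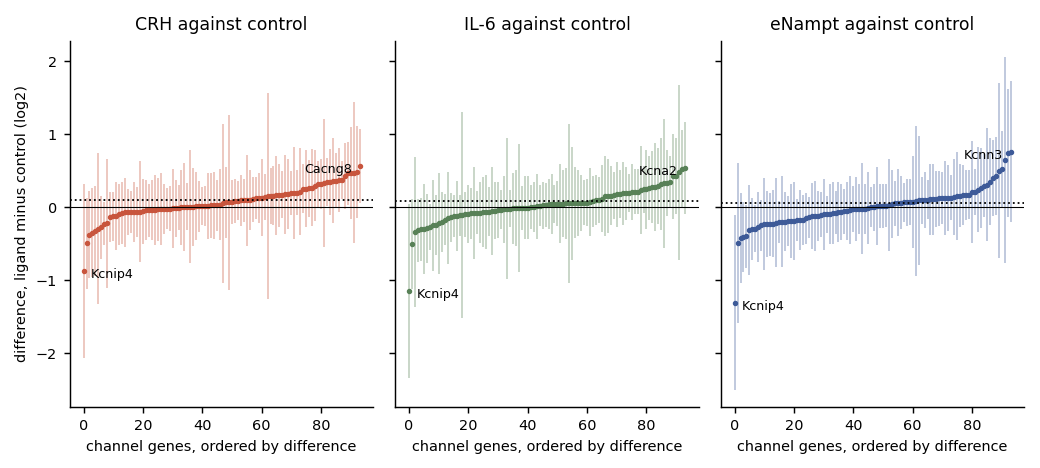
Differences from control (log2, y axis) of the 94 channel genes, ordered by size (x axis), for CRH, IL-6 and eNampt; points are the fitted differences, lines their 95% intervals, and the dotted line is the median difference of all genes. Most intervals include 0, none of the 94 genes passed the adjusted threshold in any panel, and Kcnip4 is the lowest point in each.

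A p above the threshold does not show equal levels, so the intervals are given as well. The 95% interval of the difference lay wholly within a 2-fold change either way for 82 of 94 channel genes with CRH (87.2%), 84 with IL-6 (89.4%) and 84 with eNampt (89.4%). Among all genes these shares were 58.1%, 58.0% and 56.7%. The channel genes had the smaller spread within groups (median residual SD 0.277, against 0.409 for all genes). Of the 94, 63 had a mean at or below the mean of the array medians. Signal over background is unknown for channel genes near the array medians, so a narrow interval there bounds the array value, not the RNA change. Cacng7, Kcnk1, Kcnq5, Kcnd1, Kcnip4 and Kcnmb1 had intervals that reached past a 2-fold change with all 3 ligands, and Kcna3 with none. The interval of Kcnk1 with eNampt ran from -0.14 to 1.62, that of Cacng7 from -0.77 to 2.05 and that of Kcnq5 from -0.70 to 1.70. For Kcna3 it ran from -0.45 to 0.75.

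Between ligands no channel gene passed either. For eNampt against CRH, 0.0137% of all genes were called, 2 channel genes had an unadjusted p under 0.05, against 4.93% of all genes, and the smallest adjusted p was 0.943. The median difference was -0.11, against -0.05 for all genes, with 28 positive and 66 negative. After centring the split was 42 positive and 52 negative, with a median of -0.034, so it depends on the scaling. Kcna10, a voltage-gated potassium pore, had 1.89, 1.65, 1.72 and 1.74 on the eNampt arrays and 1.80, 1.96, 2.31 and 2.25 on the CRH arrays, a difference of -0.33 ± 0.13 (SE; adjusted p = 0.943). CRH arrays 3 and 4 were the high ones, and the groups overlapped. Kcne3 had 1.21, 1.23, 1.27 and 0.92 on the eNampt arrays, against the CRH values given above, a difference of -0.27 ± 0.12 (SE; adjusted p = 0.943). Cacng8 had a difference of -0.43 ± 0.23 (SE; adjusted p = 0.943), which was -0.23 without CRH array 4. Kcna3 had a difference of 0.53 ± 0.28 (SE; adjusted p = 0.943), with 3 of 4 CRH arrays below all eNampt arrays. Kcnj3, a G-protein-gated inward rectifier, had 1.54, 1.31, 2.86 and 1.93 on the eNampt arrays and 1.77, 1.65, 1.37 and 1.74 on the CRH arrays, a difference of 0.28 ± 0.25 (SE; adjusted p = 0.946); eNampt array 3 was the high one, and without it the difference was -0.037. Kcnh8 had a difference of 0.27 ± 0.25 (SE; adjusted p = 0.946), which was 0.14 without CRH array 2 and 0.14 without eNampt array 1. No overlap was seen for Kcnk9, an acid-sensitive background channel that was lower with eNampt, and for Scn9a, which was higher, against 2.96% of all genes. Kcnk9 had 1.88, 1.89, 1.97 and 1.82 on the eNampt arrays and 1.97, 2.45, 2.15 and 2.21 on the CRH arrays, and Scn9a had 1.63, 1.34, 1.56 and 1.61 on the eNampt arrays and 1.26, 1.20, 1.30 and 1.20 on the CRH arrays.

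For eNampt against IL-6, 0.0137% of all genes and 0 channel genes were called, with a smallest adjusted p of 1.00. An unadjusted p under 0.05 was reached by Kcnd2 and Kcna2, against 3.37% of all genes. Kcnd2 had 1.37, 1.35, 1.55 and 1.20 on the eNampt arrays and 2.03, 1.86, 1.50 and 2.97 on the IL-6 arrays, a difference of -0.72 ± 0.25 (SE; adjusted p = 1.00), which was -0.42 without IL-6 array 4. Kcna2 had 2.20, 2.01, 1.66 and 1.74 on the eNampt arrays and 3.13, 2.44, 1.89 and 3.22 on the IL-6 arrays, a difference of -0.77 ± 0.29 (SE; adjusted p = 1.00). In both genes the IL-6 arrays were the higher ones, with overlap. Kcnab1, a cytoplasmic beta subunit, had a difference of -0.27 ± 0.14 (SE; adjusted p = 1.00). On the other side were Kcnn3, with 0.78 ± 0.45 (SE; adjusted p = 1.00) and 0.40 without eNampt array 1, Cacng6, a gamma subunit, with 0.23 ± 0.14 (SE; adjusted p = 1.00), and Kcnh6, with 0.38 ± 0.25 (SE; adjusted p = 1.00) and 0.12 without eNampt array 3. No channel gene was without overlap, against 2.82% of all genes.

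For CRH against IL-6, 0% of all genes and 0 channel genes were called, and 0 channel genes had an unadjusted p under 0.05 by limma, against 3.97% of all genes. Kcnj2 had 1.58, 1.89, 3.13 and 2.12 on the CRH arrays and 1.45, 2.01, 1.54 and 1.48 on the IL-6 arrays, a difference of 0.56 ± 0.29 (SE; adjusted p = 1.00). CRH array 3 was the high one, and the difference was 0.25 without it. Kcnd2 differed by -0.52 ± 0.25 (SE; adjusted p = 1.00) and by -0.22 without IL-6 array 4. The other channels named by the rule were Kcna10 with 0.25 ± 0.13 (SE; adjusted p = 1.00), Cacng8 with 0.41 ± 0.23 (SE; adjusted p = 1.00) and 0.20 without CRH array 4, Kcnc1 with -0.23 ± 0.15 (SE; adjusted p = 1.00) and Kcns3 with -0.23 ± 0.17 (SE; adjusted p = 1.00) and -0.36 without CRH array 2. No channel gene was without overlap, against 2.32% of all genes.

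Genes that work beside these channels were read from 7 lists with 102 genes, of which 56 were measured. On every array 20 of the 56 (35.7%) were above the median, a share near the 38.2% of all genes. They included Scn3b, a sodium channel beta subunit (mean 3.78), Trpm7, a magnesium- and calcium-permeable channel (4.38), Atp2a2, the calcium pump of the endoplasmic reticulum (6.70), Atp2b1, the calcium pump of the plasma membrane (6.27), and Itpr1, the calcium release channel gated by inositol trisphosphate (4.54). The store sensors Stim1 and Stim2, the entry channel Orai3, the sodium pump subunits Atp1b1 and Atp1b3, and Rest and Rcor1, a repressor of neuronal genes and its partner, were also among them. None of the 56 was called in any of the 6 comparisons, and the counts at an unadjusted p under 0.05 by limma were 2 for CRH (3.57%), 2 for IL-6 (3.57%) and 3 for eNampt (5.36%) against control. All 3 shares lay below those of all genes, 6.33% for CRH, 5.54% for IL-6 and 7.55% for eNampt. The genes given next are among those with the largest moderated t of their lists, and none passed the test. Creb1, the cAMP response element binding protein, had a mean of 5.79 with CRH and 4.56 in control, a difference of 1.23 ± 0.45 (SE; adjusted p = 0.730). With eNampt its mean was 5.98, a difference of 1.42 ± 0.45 (SE; adjusted p = 0.462), and with IL-6 its mean was 5.17. The control mean includes control arrays 3 and 4, the arrays with the lower 90th percentile (4.43 to 4.58). Creb1 was not looked at without them, so their part in its differences was not tested. Trpv2, a calcium-permeable channel, differed by -0.52 ± 0.20 with IL-6 (SE; adjusted p = 0.860) and by -0.56 ± 0.20 with eNampt (SE; adjusted p = 0.530). With CRH Trpv2 differed by -0.22 ± 0.20 (adjusted p = 0.853). Nalcn, the sodium leak channel that depolarizes resting pituitary cells, differed by -0.44 ± 0.25 with CRH (SE; adjusted p = 0.812) and by -0.59 ± 0.25 with eNampt (SE; adjusted p = 0.631). Its mean with IL-6 was 1.72, against 2.22 in control, so the mean was lower than in control with each ligand. Nalcn was above the median on only 5 arrays. Unc79, from the same list, differed by 0.52 ± 0.23 with IL-6 (SE; adjusted p = 0.860). Its mean was 2.33 with CRH and 1.82 with eNampt, against 2.14 in control. With CRH, Adcy5 of the cAMP list differed by 0.38 ± 0.14 (SE; adjusted p = 0.750). Cadps of the release list differed by 1.43 ± 0.67 with CRH (SE; adjusted p = 0.788), and its highest array was at 6.58.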

How the data were processed

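The deposited table holds log2 expression values for 36685 probe sets on 16 arrays, made by the authors with RMA according to the submitters' processing notes. RMA's version and the probe sets' genome build are not stated in these sources. The labelling kit was started with 5 ng of RNA. Symbols came from GEO's platform annotation and were updated through Entrez identifiers for 14670 probe sets: 14824 probe sets had 1 symbol, 829 several and 21032 none, and only those with 1 symbol were used in the comparisons. The brightest probe set over the 16 arrays stood for each of the 234 genes with several. Dim probe sets were kept, and the number of arrays limits the precision.

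Groups came from the sample titles. limma 3.58.1 in R 4.3.3 fitted 1 mean per group to all 16 arrays, with moderated two-sided tests (no trend, not robust) and Benjamini-Hochberg adjustment over 14557 genes; the limit for a call was an adjusted p of 0.05. The fit was checked on simulated data with each gene's own SD, where random genes were raised in the eNampt group. Against control it recovered 46.3% of those raised by 1 log2 unit, 80.6% at 2 and 93.9% at 3, with 8 false calls. A change of 1 log2 unit can thus go uncalled. Whether a channel lies above the array median was counted with no test. Tables and plots were made in Python 3.11.15 with pandas 2.3.3 and matplotlib 3.10.9. Named genes were listed members with a known part in pituitary excitability, the 3 members each way with the largest moderated t in each comparison, the 10 highest, the highest of each family, those nearest the limit and those with a single array far from its group; Kcna6, Kcns3 and other members named at an end of a family, and those named for groups without overlap, were chosen after their values were seen. The members and lists were chosen with earlier results of these data known. Alternatives were other normalizations, variance models, filters and sets of arrays.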

Additional observations from a re-analysis of the deposited data

Results flagged for a closer look

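Within a group of 4 arrays, the highest or lowest array was looked at for its distance from the other 3 (Dixon's ratio, limit 0.829). Of 376 sets, each of them 1 channel gene in 1 group, 28 (7.45%) passed the limit, 17 with a high and 11 with a low array, in 23 genes. Chance gives about 5% for normally spread values. The share over all genes was not computed, so 7.45% is not read as a trait of the channels. The most on 1 array were 4, on IL-6 array 3 and on eNampt array 4.

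In the CRH group the high arrays were those of Cacnb4 (2.41 on array 2, the others 1.39 to 1.49), Cacng4 (2.57 on array 3, the others 1.53 to 1.64), Kcnh7 (2.39 on array 3, the others 1.34 to 1.38), Kcna3 (2.75 on array 4, the others 2.04 to 2.14), Scn11a (2.37 on array 4, the others 1.89 to 1.97) and Kcnip4 (2.83 on array 1, the others 1.37 to 1.56). Kcnh5, an ether-a-go-go pore, was low at 1.14 on array 1, with the others at 1.40 to 1.43.

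In the IL-6 group the A-type pore Kcnd1 was high at 3.02 on array 4, with the others at 1.60 to 1.73, and Kcnk16 at 1.72 on array 4, with the others at 1.46 to 1.49. Kcnmb1 stood at 3.46 on array 3, with the others at 1.52 to 1.71, and Cacng4 at 1.90 on array 3, with the others at 1.42 to 1.48. Scn7a was high at 2.10 on array 2 (the others 1.19 to 1.34), Kcnj2 at 2.01 on array 2 (the others 1.45 to 1.54) and Kcnip4 at 2.16 on array 1 (the others 1.21 to 1.36). Low arrays were those of Kcnn3 (1.97 on array 3, the others 2.67 to 2.76), Kcnu1 (1.07 on array 3, the others 1.41 to 1.43), Kcnj5 (1.02 on array 4, the others 1.76 to 1.89) and Scn11a (1.67 on array 1, the others 1.99 to 2.04).

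In the eNampt group Kcnd1 reached 4.18 on array 2, with the others at 1.65 to 1.94, and Kcnd3 reached 3.91 on array 4, with the others at 2.17 to 2.44. Cacna1b was high at 1.87 on array 3 (the others 1.25 to 1.31) and Kcnk15, a tandem-pore channel, at 2.17 on array 3 (the others 1.36 to 1.39). On array 4 Cacng3 was low at 1.52 (the others 1.85 to 1.87), Kcne3 at 0.92 (the others 1.21 to 1.27) and Kcnh4 at 1.29 (the others 1.58 to 1.62).

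In the control group the 3 sets were all low on array 4: Kcna10 at 1.76 (the others 1.99 to 2.03), Kcne3 at 0.89 (the others 1.10 to 1.12) and Kcnh6 at 1.62 (the others 1.98 to 2.04).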

How the results depend on the processing

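Each comparison was recomputed under 27 alternatives (26 for the F test), 16 of them leaving out 1 array each, and no channel gene was called in any of them; the lowest adjusted p of a channel gene was 0.305. Of 949 recomputed differences of the named channel genes 947 kept their direction. Many of the 949 could not change, so this count does not measure how stable the differences are. A difference stays the same when the array left out belongs to neither of its groups. It also stays the same when only the variance model's trend, the gene filter or the handling of several probe sets changes. Scn9a with CRH against control turned to 0.012 without control arrays 3 and 4. Kcnj3 with eNampt against CRH turned to -0.037 without eNampt array 3 (range without 1 array -0.037 to 0.48). The causes were not tested. The count of channels above the medians on every array was 5, and 1 against the median of the named genes, 1 against the median plus 1 log2 unit, 23 when 12 of 16 arrays were enough and 31 by the mean over the arrays; the count below was 23, and 70 against the median plus 1, 51 at 12 of 16 arrays and 63 by the mean. These moves follow from how the limit was built. Leaving out 1 array gave 5 to 7 above and 23 to 26 below.

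Over all genes the counts called were small and moved. CRH against control called 0 genes, and 2 without control arrays 3 and 4 and 2 with quantile normalization repeated. IL-6 against control called 1, and 0 with the replicate block, a term for replicates 1 and 2 against 3 and 4, trend and robust variances, array weights, only genes above the median of all values, or only the arrays of the 2 groups. eNampt against control called 2, and 0 without control arrays 3 and 4, 4 with the replicate block, 4 with quantile normalization repeated, 5 above the median and 0 with the 2 groups alone. eNampt against CRH called 2, and 1 with the 2 groups alone. eNampt against IL-6 called 2, and 4 with the term for replicates, 5 with trend and robust variances, 6 with weights, 4 above the median and 1 with the 2 groups alone. Leaving out 1 array gave 0 to 2 for CRH, 0 to 7 for IL-6 and 2 to 14 for eNampt against control, 0 to 5 for eNampt against CRH, 1 to 3 for eNampt against IL-6, 0 to 1 for CRH against IL-6 and 0 to 7 for the F test. The median difference of the channel genes with eNampt against control, 0.00, was 0.059 with centred arrays and 0.11 above the median, and ranged from -0.028 to 0.036 without 1 array. With eNampt against CRH, -0.11, it was -0.036 with quantile normalization repeated and -0.034 with centred arrays, and ranged from -0.13 to -0.055 without 1 array. With eNampt against IL-6, -0.04, it turned to 0.037 among genes above the median, to 0.0082 with quantile normalization repeated and to 0.011 with centred arrays. With CRH against control, 0.046, it was 0.022 with quantile normalization repeated, 0.025 with centred arrays and 0.098 above the median, and ranged from 0.019 to 0.093 without 1 array. With IL-6 against control, 0.038, it turned to -0.0065 without control arrays 3 and 4.

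Same-numbered arrays of different groups deviated together in some pairs only. Over 24 pairs the correlation of their deviations from the group means ran from -0.184 to 0.305, with a median of 0.0309, and 8 pairs were above 0.1, among them eNampt 3 with control 3 (0.305), CRH 3 with control 3 (0.296), and CRH 1 with eNampt 1 (0.196). The other pairs had a median of -0.00972, and 8 of 16 arrays were closest to an array of their own number. IL-6 array 2 had 0.278 with control 3, 0.200 with CRH 3 and 0.241 with eNampt 3. For IL-6 array 3 these values were -0.0217, -0.0232 and 0.00554. The labels do not say what the numbers mark, so the main fit held no term for them. Whether some arrays share a culture or a batch was not tested. With the replicate block 0 channel genes were called in every comparison. Detection calls were not used here, so signal over background is unknown for the channel genes near the array medians, and 4 arrays per group limit the precision.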
